A study of Sus scrofa with 23 samples.

Results

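The prefrontal cortex of pigs was compared between 1 week and 1 day after a single dose of psilocybin. All libraries labelled psilocybin were used, 12 of the 23 in the series, with 6 animals at each time. The animals were female adolescent Danish slaughter pigs of 20 kg, injected intravenously with 0.08 mg/kg psilocybin while awake and moving freely, and killed with an overdose of pentobarbital, so that every group shares the injection, the housing and the mode of death. The other 11 libraries come from animals given saline, 5 killed at 1 day and 6 at 1 week (the series states 6 per group, and 5 are analysed here at 1 day). They serve as the same interval without the drug. Each library is 1 animal by its number in the labels, and animals are numbered here within their group in the order of those numbers.

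Psilocybin is converted in the body to psilocin, an agonist of serotonin receptors whose psychedelic action depends on the 5-HT2A receptor (gene HTR2A). That receptor couples to Gq proteins and is abundant on pyramidal neurons of the cortex, where agonists acutely induce activity-dependent genes such as FOS, ARC and EGR1. Synaptic and structural changes that outlast the drug have been described in the cortex of other animals, which makes a comparison of a day with a week after the dose a question of what has appeared or gone between these times.

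Poly-A RNA was sequenced, and 9504421 to 18654626 read counts per psilocybin library were assigned to genes. The animals fall into 2 batches that follow their numbers in the labels, batch 1 having the lower numbers. Each psilocybin group has 3 animals of each batch. Mitochondrially encoded messenger RNAs took 9.84% ± 2.30 (SD, n = 6) of counts at 1 day and 10.2% ± 1.34 (SD, n = 6) at 1 week. On the first principal component, which held 21.3% of the variance after the batch term, 3 libraries stood apart, 1 of them from a psilocybin animal (1 week animal 6). CENPF, and each list whose lowest or highest median on leaving out an animal came without that library, are given with and without it. Of the marker lists of cortical cells, 19 of 19 excitatory and 21 of 21 inhibitory neuron markers matched in the table were expressed enough to be tested. No marker of either list was at 0 in the psilocybin libraries. The tissue was not sorted, so that throughout these bulk data fewer cells of a type and less RNA per cell cannot be told apart.

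No gene passed the test between the times after psilocybin, and the gene nearest to passing was CENPF. With edgeR's quasi-likelihood test, 0 of 15049 genes (0%) had a Benjamini-Hochberg adjusted p under 0.05. An unadjusted p under 0.05 was found for 479 genes (3.18%), 231 of them higher at 1 week (1.53%) and 248 lower (1.65%). limma-voom called 0 genes with 450 at that unadjusted threshold, and DESeq2 called 1 gene (CENPF) with 525. The split depended on the scaling and on the animals fitted. Against 231 of 479 here, 193 of 514 genes were higher with RLE size factors and 190 of 525 with DESeq2. With the scaling method unchanged, 193 of 453 were higher in a fit of the psilocybin animals alone and 338 of 822 without 1 week animal 1. The number of genes under that unadjusted threshold was 286 without 1 day animal 4 and 948 without 1 day animal 5, 822 without 1 week animal 1 and 718 without 1 week animal 6. The typical difference was small, with a median absolute log2 fold change of 0.086 over all genes beside a median standard error of 0.13. More than 2-fold differences were estimated for 44 genes, of which 24 had an unadjusted p under 0.05. In the saline animals the same interval gave 0 of 15049 genes past the threshold (0%) and 303 with an unadjusted p under 0.05 (2.01%). The difference of the 2 time effects, tested in the same model, gave 0 (0%) and 304 (2.02%).

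CENPF encodes a large kinetochore protein made mainly in dividing cells (ENSSSCG00000015581, chromosome 9, 128949182 to 129008793, build susScr11). Its level in CPM (counts relative to the TMM-scaled total of the library) was 0.645, 1.24, 1.06, 1.17, 1.58 and 1.08 in the 6 animals at 1 day. At 1 week it was 2.15, 2.23, 3.06, 2.94, 2.996 and 2.09 CPM. Every animal at 1 week was above every animal at 1 day. The means were 1.13 ± 0.302 and 2.58 ± 0.464 CPM (SD, n = 6 each), between which the saline groups lay at 1.58 ± 0.520 CPM (SD, n = 5) at 1 day and 1.58 ± 0.407 CPM (SD, n = 6) at 1 week. The log2 fold change after psilocybin was 1.21 ± 0.21 (SE, 95% confidence interval 0.78 to 1.64, edgeR adjusted p = 0.0917), with 1.33 in batch 1 and 1.06 in batch 2. DESeq2 gave an adjusted p of 0.0192, and edgeR gave 0.0333 without 1 week animal 6 and 0.0522 without the 3 libraries standing apart. Over the other animals left out in turn, the adjusted p ranged from 0.105 to 0.489, and it was 0.737 in a fit of the psilocybin animals alone and 0.579 without the batch term. After saline the log2 fold change was 0.038, and the difference of the time effects was 1.17 ± 0.30 (SE, adjusted p = 1), so that a difference between the arms did not pass.

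Groups without overlap were rare. All 6 animals at 1 week were above all 6 at 1 day for 6 of 15049 genes (0.0399%) and below them for 4 (0.0266%). Besides CENPF, the higher genes were TRIM14, TRDMT1, ZWILCH, RABGEF1 and ENSSSCG00000040018, and the lower ones FRMD1, EHD1, TERF2 and ENSSSCG00000039739. ZWILCH, RABGEF1, TERF2 and the unnamed identifiers were picked because their groups did not overlap, so their values are only described. ZWILCH encodes a protein of the kinetochore, as CENPF does, and had 5.06 to 5.57 CPM at 1 day and 5.77 to 7.52 CPM at 1 week. TERF2, which binds telomeres, had 48.8 to 57.2 CPM at 1 day and 44.5 to 48.8 CPM at 1 week, so that its nearest animals almost met.

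Besides CENPF, 9 genes made up the 10 with a symbol and the smallest p among those higher at 1 week. SLC6A4 encodes the serotonin transporter, which clears serotonin from the synapse. Its level was 0.255 CPM at the lowest, 0.555 at the median and 1.32 at the highest animal at 1 day, and 0.709, 1.57 and 2.04 CPM at 1 week. A single 1 day animal (animal 3) lay among the 1 week values. The log2 fold change of SLC6A4 was 1.16 ± 0.31 (SE, adjusted p = 0.999), and in saline animals it was 0.13. At these levels a library holds few reads of the gene.

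CXCL10 is a chemokine induced by interferon, and its gene shares part of its span with ART3 on the other strand, which counting without strand cannot separate. It had 0.663, 1.48 and 2.08 CPM (lowest, median and highest) at 1 day and 1.39, 3.22 and 4.59 CPM at 1 week, so that animals 4 and 6 at 1 week lay within the 1 day range. The log2 fold change was 1.05 ± 0.31 (SE), with 1.48 in batch 1 and 0.60 in batch 2. The saline groups had 3.77 ± 1.19 CPM (SD, n = 5) at 1 day and 2.84 ± 0.839 CPM (SD, n = 6) at 1 week, both close to the 1 week and above the 1 day psilocybin mean of 1.45 ± 0.586 CPM. In saline animals the log2 fold change was -0.44, and the difference of the time effects was 1.497 ± 0.42 (SE, adjusted p = 1).

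TRIM14, an adaptor of antiviral signalling, had 9.68 to 11.9 CPM at 1 day and 12.3 to 15.1 CPM at 1 week (log2 fold change 0.38 ± 0.11, SE), and its span overlaps NANS. IL18, an inflammatory cytokine, had medians of 3.98 and 5.65 CPM (0.53 ± 0.17). CD53, a tetraspanin of leukocytes and microglia, had 3.16, 4.76 and 7.23 CPM at 1 day and 6.19, 7.39 and 10.6 CPM at 1 week (0.66 ± 0.19). NFATC1, a transcription factor activated by calcium signals, had a log2 fold change of 0.56 ± 0.17, and 0.40 without 1 week animal 3, whose level of 5.81 CPM was the highest. None of these groups except those of TRIM14 was free of overlap. The remaining genes were the DNA glycosylase gene NEIL2 (0.36 ± 0.11), the transfer RNA methyltransferase gene TRDMT1 (0.52 ± 0.16) and the sorting nexin gene SNX14 (0.46 ± 0.15), each with an adjusted p of 0.999.

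Among the genes lower at 1 week, FRMD1, which encodes a protein with a FERM domain, had the smallest p. It had 12.1, 15.1 and 25.0 CPM (lowest, median and highest) at 1 day and 2.64, 8.84 and 10.7 CPM at 1 week, with every 1 week animal below every 1 day animal. Animal 5 at 1 week was far below the rest. The log2 fold change was -1.03 ± 0.25 (SE, adjusted p = 0.999), and -0.85 without that animal, beside -0.064 in the saline animals, which had 11.4 ± 4.04 and 10.96 ± 3.46 CPM. EHD1 acts in the recycling of endosomes. It had 71.1 to 86.0 CPM at 1 day and 63.2 to 69.5 CPM at 1 week, a small difference (-0.26 ± 0.074) with little spread at 1 week. PBX3, a homeobox transcription factor, had 3.20, 4.84 and 5.61 CPM at 1 day and 2.91, 3.09 and 3.57 CPM at 1 week (-0.59 ± 0.16), with 1 day animal 2 within the 1 week range.

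A pair of the lower genes had similar log2 fold changes in animals without the drug. NKAIN4, which encodes a partner of the sodium pump, had 9.64 ± 1.71 CPM at 1 day and 5.76 ± 1.72 CPM at 1 week after psilocybin (SD, n = 6 each; log2 fold change -0.75). After saline it had 10.6 ± 3.17 CPM (SD, n = 5) and 6.35 ± 0.871 CPM (SD, n = 6), a log2 fold change of -0.74. The difference of its time effects was -0.013 ± 0.28 (SE, adjusted p = 1). FEZF2, a transcription factor of deep-layer projection neurons, had -0.42 ± 0.13 after psilocybin and -0.33 after saline. Its values were 23.5, 26.0 and 35.9 CPM at 1 day and 15.8, 19.4 and 29.0 CPM at 1 week, and 1 week animals 4 and 6 lay within the 1 day range. The other lower genes were PRCC (-0.26 ± 0.075), IGFBPL1 (-0.45 ± 0.14), SMTNL2 (-0.48 ± 0.15), the endoplasmic reticulum tether gene VAPB (-0.18 ± 0.057) and the protease inhibitor gene SPINK5 (-0.94 ± 0.30), all with an adjusted p of 0.999.

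All 20 genes had the same sign in both batches and on leaving out each psilocybin animal in turn, which their choice by small p partly fixes. In the saline animals 13 of the 20 had that sign and 7 the opposite. Their time difference did not enter the choice, but their libraries were part of the same fit. The share of all genes with the same sign in both arms is not given here, so the count is only described. Of the 20, 6 overlap another annotated gene.

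**Figure D1:**
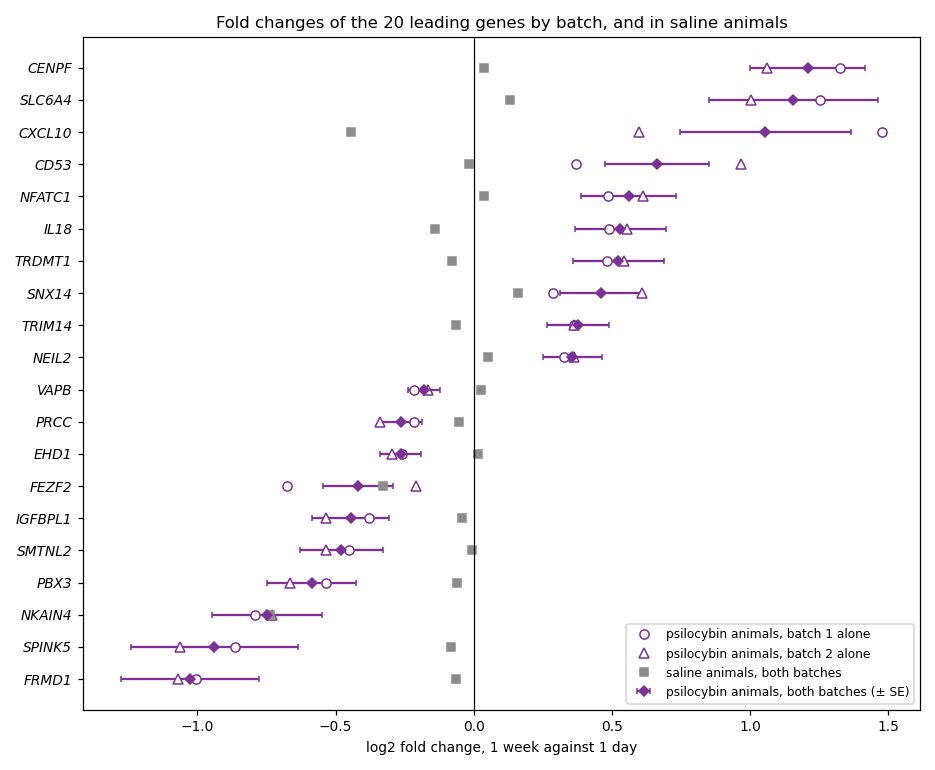
The log2 fold change between 1 week and 1 day is on the horizontal axis for the 20 leading genes, with diamonds and bars for the estimate and SE in psilocybin animals, open symbols for each batch alone and grey squares for saline animals. The saline squares lie near 0 for most genes, at -0.74 for NKAIN4 and -0.33 for FEZF2, on the side of the psilocybin estimate, and at -0.44 for CXCL10, on the opposite side.

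The difference of the time effects between psilocybin and saline was led by CENPF and CXCL10, described above, and by ARHGAP15, NMB and MFGE8. ARHGAP15, a regulator of the small GTPase Rac, had 0.567 ± 0.238 CPM at 1 day and 1.10 ± 0.426 CPM at 1 week after psilocybin (SD, n = 6 each). After saline it had 1.10 ± 0.342 CPM (SD, n = 5) and 0.658 ± 0.238 CPM (SD, n = 6), and the difference was 1.70 ± 0.45 (SE). NMB encodes the peptide neuromedin B, with a difference of 0.86 ± 0.26, and a log2 fold change of 0.23 after psilocybin (0.12 without 1 week animal 6) and -0.63 after saline. For MFGE8, whose product helps phagocytes bind dying cells, the difference was -0.43 ± 0.12, with -0.12 after psilocybin and 0.31 after saline. Each of these 5 differences had an adjusted p of 1 with edgeR.

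Of 12 genes of interest for the drug, 11 were tested, 0 of them passed (background 0%) and 0 had an unadjusted p under 0.05 (background 3.18%). HTR1A matched no symbol and was not analysed here. HTR2A is the gene of the receptor on which the psychedelic action of psilocin depends (ENSSSCG00000037452, chromosome 11, 20555709 to 20620561). It had 10.1, 14.0 and 23.5 CPM at 1 day and 10.9, 18.3 and 21.3 CPM at 1 week. The groups overlapped over nearly their whole range. Its log2 fold change was 0.22 (95% confidence interval -0.19 to 0.64), with 0.53 in batch 1, -0.10 in batch 2 and 0.12 without 1 day animal 1, so that the direction did not hold within batches. HTR2C, a related receptor, had 10.9 ± 0.988 CPM at 1 day and 10.4 ± 0.850 CPM at 1 week (-0.062, -0.30 to 0.18). BDNF, a growth factor of synaptic plasticity, had 13.5 ± 2.88 and 14.2 ± 2.78 CPM (0.073, -0.28 to 0.42). Its receptor gene NTRK2 had 679 ± 85.4 and 696 ± 76.8 CPM (0.036, -0.19 to 0.26). For SV2A, a vesicle protein used as a marker of synapse density, the means were 402 ± 68.4 and 375 ± 25.4 CPM (-0.099, -0.35 to 0.15). An interval that spans 0 does not show that a gene had the same level at both times.

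The activity-induced genes varied more between animals than between times. ARC, which acts at synapses in the removal of AMPA receptors, had 143, 195 and 377 CPM at 1 day and 118, 164 and 267 CPM at 1 week. The highest value at 1 day was that of animal 1, which was also the highest 1 day animal for FOS at 46.9 CPM, EGR1 at 223 CPM, NR4A1 at 180 CPM and DUSP1 at 57.1 CPM. ARC had a log2 fold change of -0.36 (95% confidence interval -1.14 to 0.41), with -0.90 in batch 1, 0.20 in batch 2 and -0.11 without 1 day animal 1. The log2 fold change of FOS was -0.14 (-0.73 to 0.44) and that of DUSP1 -0.020 (-0.39 to 0.35). EGR1 had 0.10 (-0.34 to 0.54). For NR4A1 the value was 0.0072 (-0.53 to 0.54), and its sign turned with the scaling. FKBP5, a gene induced by glucocorticoids, had 12.6 ± 1.91 and 12.3 ± 1.99 CPM (-0.029, -0.31 to 0.25). Over the wider list of immediate early genes, 15 of 37 were higher at 1 week and the median log2 fold change was -0.039. That median was 0.021 in batch 2 alone, 0.029 without 1 day animal 1 and -0.11 without 1 day animal 6.

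Beyond single genes, 35 lists of genes were described by the number of members higher or lower at 1 week and by their median log2 fold change. Over all genes tested, 54.3% had a positive and 45.7% a negative log2 fold change, and the median was 0.012. No member of any list passed (background 0%). Leaving out 1 psilocybin animal turned the sign of 18 of the 35 medians, and for each of the 35 at least 1 animal turned it or moved it by over 1.5 times. Members share animals and libraries and are not independent, and the lists were chosen with earlier results known, so no test is attached to these counts.

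Interferon response genes, which cells switch on in answer to viral or interferon signals, were higher at 1 week in 38 of 40 members tested, with a median log2 fold change of 0.34. In 11 of the 40 the unadjusted p was under 0.05, all of them higher, where 1.53% of all genes were. After saline 6 of 40 were higher, where 51.7% of all genes were, with a median of -0.21. Excitatory neuron markers had 4 members under that unadjusted threshold in 1 direction, and no other list had more than 3. The members with the smallest p besides CXCL10 were HERC5, a ligase that attaches ISG15 (0.35), IFI44L (0.66) and PARP9 (0.68), each of which overlaps another annotated gene. IFI44L had 9.40, 13.4 and 24.7 CPM at 1 day and 12.7, 19.9 and 34.7 CPM at 1 week, so that the groups overlapped. The others under that unadjusted threshold included GBP1 at 0.48, IFIT1 at 0.52, BST2 at 0.64, IFI6 at 0.75 and ISG15 at 0.42. Of these, GBP1 and IFIT1 belong to families of near-identical copies. The 2 members lower at 1 week were not among them, and the lowest value in the list was -0.26.

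These values were unevenly spread over the animals. The score of the list, the mean over its members of log2 CPM relative to all 23 libraries, was 0.74 in 1 week animal 3 and 0.67 in animal 5. In the other 1 week animals it lay between -0.30 and 0.10. At 1 day it was 0.45 in animal 5 and between -0.41 and -0.069 in the others. The saline groups had mean scores of 0.14 ± 0.29 (SD, n = 5) at 1 day and -0.10 ± 0.28 (SD, n = 6) at 1 week. The psilocybin groups had -0.16 ± 0.32 at 1 day and 0.14 ± 0.45 at 1 week (SD, n = 6 each), the latter at the level of the 1 day saline animals. Without 1 week animal 3 the median log2 fold change was 0.13 and 33 of 40 members were higher, and without 1 week animal 6 it was 0.45 with 40 of 40. In batch 1 alone 39 of 39 members were higher with a median of 0.42, and in batch 2 alone 33 of 40 with a median of 0.11. In these data 1 week animals 3 and 5 were also the highest of their group in the scores of microglia markers (0.45 and 0.26) and of fibroblast and meningeal markers (0.70 and 0.73). The part of these cells in the interferon result was not tested.

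Genes of antigen presentation were higher in 13 of 17 (median 0.25), with a median of 0.26 in batch 1, 0.095 in batch 2 and -0.036 after saline. It was 0.14 without 1 week animal 3 and 0.33 without 1 week animal 6. SLA-DMA, which helps load class II molecules with peptides, had 1.86, 2.30 and 2.998 CPM at 1 day and 2.59, 3.32 and 3.95 CPM at 1 week (log2 fold change 0.50). The immunoproteasome gene PSMB8 had 0.41, the peptide transporter gene TAP1 0.29 and the peptide trimming enzyme gene ERAP2 0.48. PSMB8 and TAP1 overlap one another, so that reads counted for either can come from both. ERAP2 had 0.27 and TAP1 0.18 without 1 week animal 3. Complement genes were higher in 9 of 12 (median 0.20, and 0.13 without 1 day animal 4). C2, a protease of the classical pathway that overlaps CFB, had 0.714, 1.39 and 2.77 CPM at 1 day and 1.19, 2.74 and 3.77 CPM at 1 week (0.77), and CFD had -0.33 (-0.21 without 1 week animal 2). Inflammatory signalling genes were higher in 15 of 22 (median 0.077, with 0.14 in batch 1 and -0.032 in batch 2). Without 1 week animal 3 the median was 0.031 and without 1 week animal 6 it was 0.12. In this list IL18 stood at 0.53, the interleukin receptor gene IL1R1 at 0.52, NLRP3 at 0.46 and RELB at -0.27. CXCL8 was at 0 in all psilocybin libraries.

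Microglia markers were higher in 21 of 22 (median 0.19), with CD68 the exception. After saline 11 of 22 were higher (median 0.017). Their summed level was 288 to 578 CPM at 1 day and 398 to 646 CPM at 1 week, so that the groups overlapped, and no tested marker was at 0. The lowest sum was that of 1 day animal 4, without which the median was 0.079. Without 1 week animal 5 the median was 0.11 and 16 of 22 were higher. In batch 1 alone the median was 0.039, with 14 of 22 higher, against 0.28 and 20 of 22 in batch 2. ITGAM, an integrin of myeloid cells, had a log2 fold change of 0.33, the leukocyte phosphatase gene PTPRC 0.46, LAPTM5 0.23 and the transcription factor gene SPI1 0.19. LAPTM5 had -0.034 in batch 1 and 0.15 without 1 week animal 5, PTPRC 0.30 without 1 day animal 4, and SPI1 0.13 without 1 week animal 1. The higher CD53 and IL18 described above stand beside these markers, and the part of microglia in them was not tested.

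Fibroblast and meningeal markers were higher in 10 of 11 (median 0.35), with LUM the exception. After saline 4 of 11 were higher (median -0.087), but with 10 of 11 in batch 1 (median 0.61) and 2 of 11 in batch 2 (-0.77). That saline median was -0.51 without saline 1 week animal 2 and 0.17 without saline 1 day animal 4. Without 1 week animal 3 the psilocybin median was 0.21. The matrix proteoglycan gene DCN had 1.45, 3.17 and 6.31 CPM at 1 day and 3.28, 8.23 and 10.4 CPM at 1 week (log2 fold change 1.02 ± 0.44, SE), and POSTN had 0.59, FN1 0.50 and COL3A1 0.46. POSTN had 0.34 without 1 week animal 4 and COL3A1 0.28 without 1 day animal 2, and in batch 2 alone FN1 had 0.055 and COL3A1 -0.062. The summed level of the list was 107 to 356 CPM at 1 day and 121 to 379 CPM at 1 week, nearly the same range. In batch 1 the psilocybin median was 0.58 and 11 of 11 were higher, while in batch 2 it was 0.055 and 6 of 11 were. Only 4 blood cell markers were expressed enough to be tested, with a summed level of 18.6 to 499 CPM at 1 day and 35.8 to 219 CPM at 1 week, which is not read further. How much meninges or blood each sample held was not tested.

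**Figure D2:**
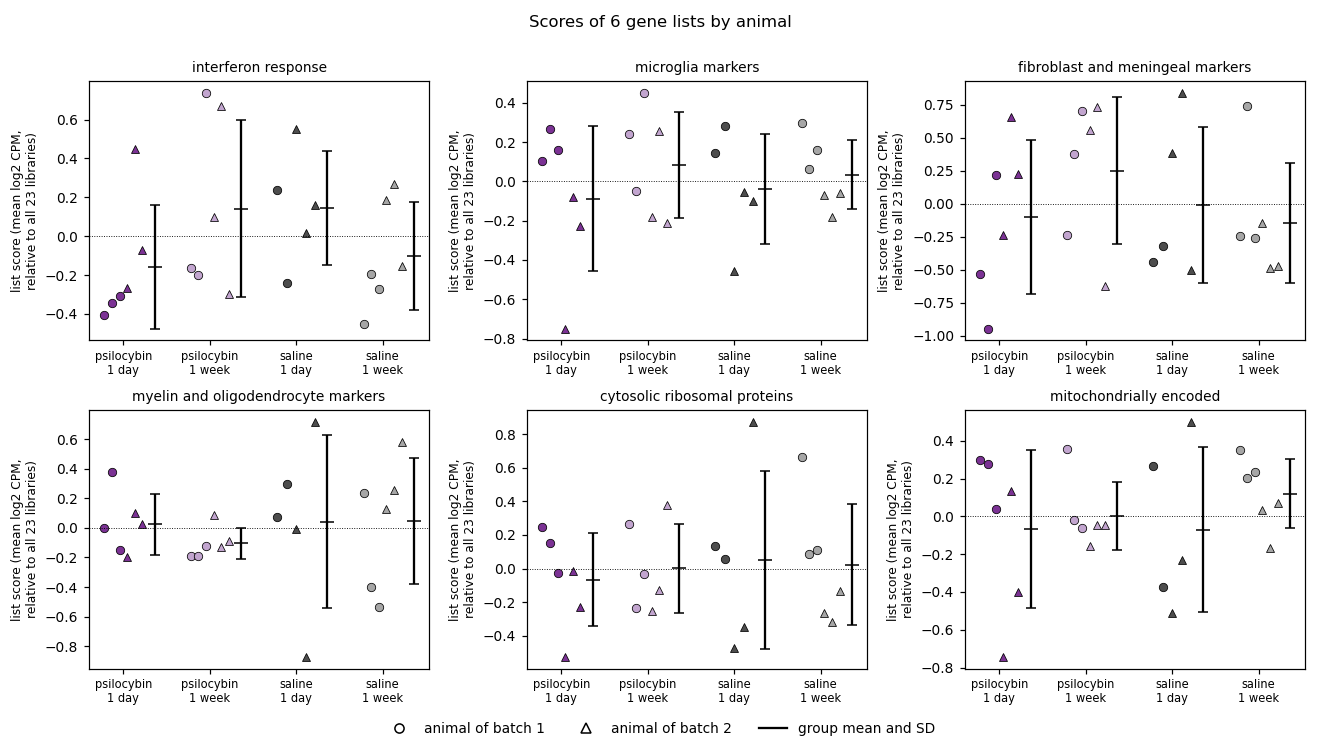
Points are the scores of 6 gene lists in each animal (the mean log2 CPM of the members relative to all 23 libraries), by group, with the batch as shape and the group mean and SD as bars. The interferon score is highest in 1 week animals 3 and 5 (0.74 and 0.67), and in every panel the psilocybin groups overlap.

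Myelin and oligodendrocyte markers lay the other way, with 1 of 18 (ASPA) higher at 1 week and a median of -0.14. MAG, an adhesion protein of myelin, had 268 to 430 CPM at 1 day (mean 331 ± 66.6, SD, n = 6) and 219 to 330 CPM at 1 week (mean 264 ± 40.6, SD, n = 6). Its log2 fold change was -0.32 ± 0.22 (SE). CNP, an enzyme of myelin, had -0.29, the surface protein gene MOG -0.28 and the transcription factor gene SOX10 -0.22. The summed level was 7186 to 14225 CPM at 1 day, where animal 2 was highest, and 7701 to 10486 CPM at 1 week. Without that animal the median was -0.045 and 5 of 18 were higher, and CNP had -0.19, MOG -0.16 and SOX10 -0.12. Without 1 day animal 4 the median was -0.21. The median was -0.32 in batch 1 and -0.079 in batch 2. After saline it was -0.063, with -0.47 in batch 1 (1 of 18 higher) and 0.19 in batch 2 (16 of 18). That saline median was -0.27 without saline 1 day animal 4 and 0.15 without saline 1 day animal 5. In the list of oligodendrocyte precursors 6 of 13 members were higher after psilocybin (median -0.0088). MEGF11 had -0.35, GPR17 -0.30, MYT1 0.22 (0.11 without 1 day animal 1) and LHFPL3 0.13 (0.042 without 1 week animal 6). The list's median was 0.12 in batch 1 and -0.17 in batch 2. It was -0.080 without 1 week animal 3 and 0.049 without 1 day animal 6.

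Astrocyte markers were higher at 1 week in 14 of 17 after psilocybin (median 0.069) and in 17 of 17 after saline (median 0.19). The bicarbonate transporter gene SLC4A4 had a log2 fold change of 0.28 after psilocybin and 0.17 after saline, and the glutamate transporter gene SLC1A2 0.42 (0.27 without 1 day animal 1) and 0.10. After psilocybin ALDOC had -0.12 (-0.060 without 1 day animal 1) and FGFR3 0.12 (0.063 without 1 day animal 1). The median of the astrocyte list was 0.033 without 1 day animal 4 and 0.12 without 1 day animal 5. Endothelial and mural markers were higher in 10 of 18 (median 0.020), with 15 of 18 in batch 1 and 2 of 18 in batch 2, and with a median of -0.028 without 1 week animal 1 and 0.084 without 1 week animal 6. The choroid plexus and ependymal list had 5 tested members, of which 1 was higher.

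Among the neuronal lists, that of excitatory neurons had the most members lower at an unadjusted p under 0.05. Excitatory neuron markers were higher in 6 of 19 (median -0.075), with medians of -0.084 in batch 1, -0.067 in batch 2, -0.036 without 1 day animal 4 and -0.039 after saline. In 4 of the 19 (FEZF2, NEUROD2, NEUROD1 and SLC17A7) the unadjusted p was under 0.05, all of them lower, where 1.65% of all genes were. In saline animals 2 of 19 were lower at that threshold, where 129 of 15049 genes were. Besides FEZF2, the transcription factor genes NEUROD2 and NEUROD1 had -0.22 and -0.52 after psilocybin. SLC17A7, the vesicular glutamate transporter of cortical pyramidal cells, had -0.19 (-0.11 without 1 day animal 4). NEUROD2 had 123, 149 and 172 CPM at 1 day and 121, 129 and 133 CPM at 1 week. NEUROD1 had -0.31 without 1 day animal 1, whose level of 9.49 CPM was the highest. Inhibitory neuron markers were higher in 10 of 21 (median -0.0021), with the calcium-binding protein genes CALB2 at -0.44 and CALB1 at -0.41 and PROX1 at 0.58. CALB1 had -0.12 without 1 day animal 1, and the list's median was -0.039 without 1 week animal 6 and 0.042 without 1 week animal 4. The neuropeptide list had 8 of 19 higher (median -0.0038, with -0.079 without 1 week animal 6 and 0.094 without 1 day animal 4). GAL, the galanin precursor, had -1.005 ± 0.46 (SE) at levels of 0.0928 to 1.32 CPM at 1 day and 0.0995 to 0.614 CPM at 1 week, which are few reads, and -0.66 without 1 day animal 6.

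At the synapse, 18 of 40 genes of glutamate receptors and their postsynaptic scaffolds were higher (median -0.0023, with -0.035 without 1 week animal 2 and 0.029 without 1 day animal 4). DLG1, a scaffold that anchors AMPA receptors, had 88.3, 99.8 and 117 CPM at 1 day and 91.7, 117 and 131 CPM at 1 week (log2 fold change 0.19). GRIN2C, a subunit of NMDA receptors, had -1.27 ± 0.62 (SE), but the value rested on 1 day animal 1 at 7.74 CPM against 0.203 to 1.06 CPM in all other psilocybin animals, and was 0.11 without it. Presynaptic genes were higher in 12 of 33 after psilocybin (median -0.046) and in 12 of 33 after saline (median -0.046). The psilocybin median was -0.088 without 1 week animal 2 and -0.021 without 1 day animal 4. The vesicle protein gene SYNGR3 had -0.23, and SV2C, a relative of SV2A, had 0.69. GABA receptor and inhibitory synapse genes were higher in 13 of 19 (median 0.047, -0.010 in batch 2 alone and 0.00029 without 1 day animal 1), with the receptor subunit gene GABRA5 at -0.27. Perineuronal net and matrix genes (13 of 25, median 0.0019), ion channels (32 of 52, median 0.049) and guidance and adhesion genes (22 of 60, median -0.040) had medians of opposite sign in the 2 batches. The first had -0.0015 without 1 week animal 3 and 0.081 without 1 week animal 6, the second -0.010 without 1 week animal 2, and the third -0.0039 without 1 day animal 4 and -0.074 without 1 week animal 2.

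Serotonin system genes were higher in 3 of 9 (median -0.041), where SLC6A4 was the highest, and the median was 0.15 in batch 1 and -0.096 in batch 2. Without 1 day animal 4 the median was 0.061 and 6 of 9 were higher. DDC, the decarboxylase in serotonin and dopamine synthesis, had -0.18 (-0.064 without 1 day animal 1). Genes of Gq signalling and receptor regulation were higher in 11 of 22 (median 0.0071, -0.0053 with RLE size factors, -0.033 without 1 week animal 2 and 0.031 without 1 day animal 5). The receptor kinase gene GRK6 had -0.27, the G protein gene GNA11 -0.14, RGS14 -0.19 and ITPR2 0.33. Neurotrophin, mTOR and plasticity signalling genes were higher in 16 of 30 (median 0.028, -0.043 in batch 2 alone and -0.0077 without 1 day animal 1). IGF1, a growth factor, had 0.276, 0.490 and 0.692 CPM at 1 day and 0.510, 0.816 and 1.42 CPM at 1 week (log2 fold change 0.88 ± 0.29, SE, adjusted p = 0.999). The saline groups had 0.946 ± 0.199 CPM (SD, n = 5) and 0.872 ± 0.308 CPM (SD, n = 6), again nearer to the 1 week psilocybin animals.

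**Figure D3:**
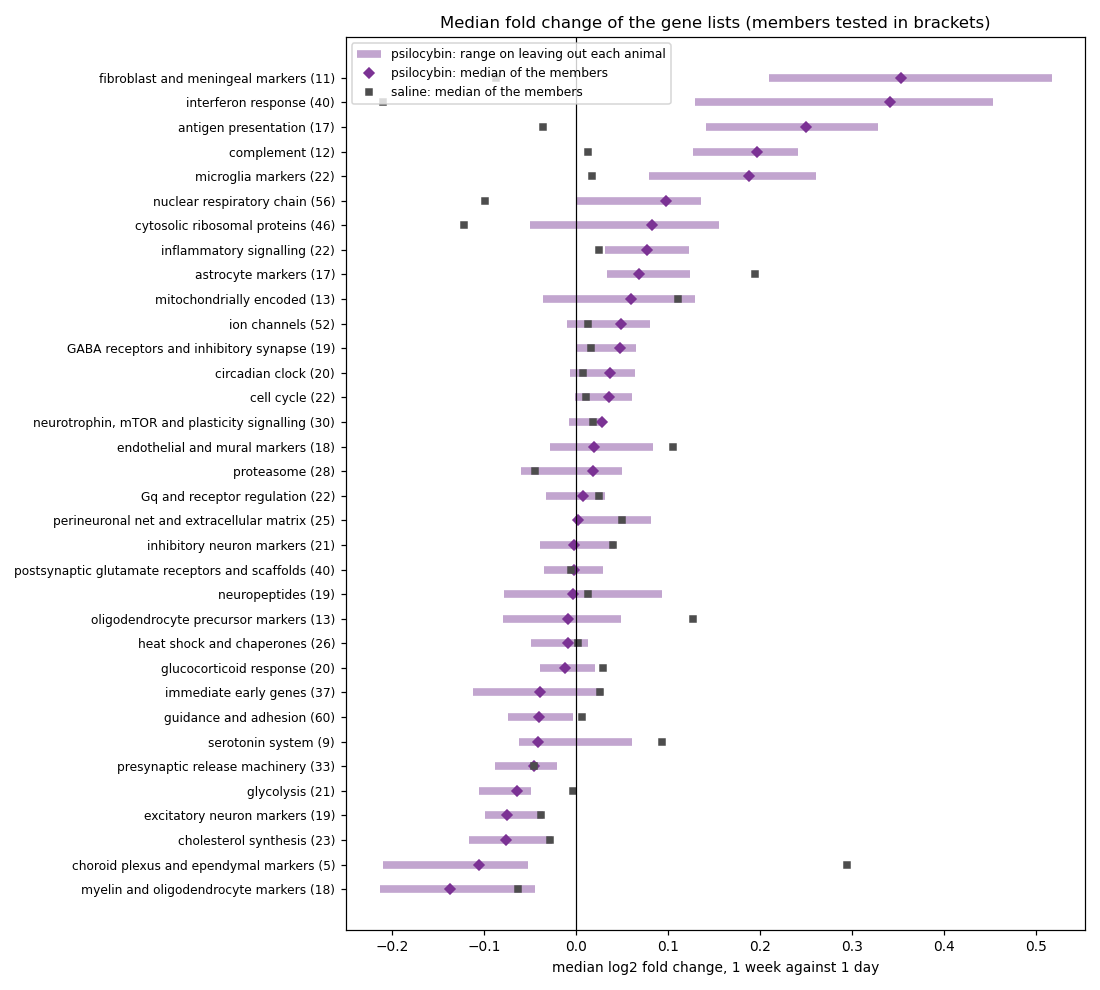
Each row is a gene list, with the median log2 fold change of its members between 1 week and 1 day on the horizontal axis, diamonds for psilocybin, bars for the range on leaving out each psilocybin animal and squares for saline. The interferon list lies at 0.34 after psilocybin and -0.21 after saline, and the bars of the ribosomal and mitochondrially encoded lists cross 0.

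The medians of lists of abundant housekeeping messages turned on single animals. Nuclear genes of the respiratory chain were higher in 46 of 56 (median 0.098), but in 28 of 56 with a median of 0.0013 without 1 week animal 6. Their medians were 0.0013 in batch 1 and 0.19 in batch 2. Cytosolic ribosomal protein genes, many of which have near-identical copies, were higher in 41 of 46 (median 0.082), and in 9 of 46 with a median of -0.050 without the same animal. In batch 1 alone 4 of 46 were higher and in batch 2 alone 45 of 46. Mitochondrially encoded genes were higher in 11 of 13 (median 0.059), and in 0 of 13 with a median of -0.036 without 1 day animal 4, the library with the most assigned counts and the lowest mitochondrial share (6.21%). None of these lists had a member with an unadjusted p under 0.05 (background 3.18%). After saline 5 of 56, 1 of 46 and 13 of 13 members of these lists were higher.

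Of the metabolic lists, cholesterol synthesis genes were higher in 6 of 23 (median -0.076) and glycolysis genes in 7 of 21 (median -0.065, and -0.11 without 1 day animal 3). For cholesterol synthesis the median was -0.027 with 10 of 23 higher without 1 day animal 2 and -0.12 with 3 of 23 without 1 week animal 6. DHCR7, the last enzyme of cholesterol synthesis, had -0.26 and the phosphofructokinase gene PFKP -0.26. Cell cycle genes were higher in 14 of 22 (median 0.036), and in 11 of 22 with a median of -0.00087 without 1 day animal 4. Without 1 week animal 6 the median was 0.061. Besides CENPF, the replication helicase genes MCM4 and MCM3 had 0.36 (0.21 without 1 week animal 1, 0.096 in batch 2 alone) and 0.37 and the cyclin gene CCND3 -0.16, and CCNB1, CCNB2, CDK1 and BUB1 were too low to be tested. Clock genes were higher in 12 of 20 (median 0.037), with -0.0063 without 1 week animal 5. Proteasome genes were higher in 16 of 28 (median 0.019), but in 7 of 28 with a median of -0.060 without 1 week animal 6. Heat shock and chaperone genes were higher in 12 of 26 (median -0.0092), in 7 of 26 with -0.049 without the same animal, and in 15 of 26 with 0.013 without 1 week animal 4. Glucocorticoid response genes were higher in 9 of 20 (median -0.013), with -0.040 without 1 week animal 1 and 0.020 without 1 day animal 3. In the last list TXNIP had 0.38 and HSD11B1, whose enzyme activates cortisol, 0.30. NR3C1 had 0.17 (0.095 without 1 week animal 4) and NFKBIA -0.096 (-0.040 without 1 week animal 4).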

How the data were processed

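The authors deposited expected counts per gene, made with featureCounts, which gave fractions of reads to overlapping genes (--fraction), used both mapped mates and primary alignments and ignored strand, per the file headers. Per the submitters' processing notes, the tools were fastp 0.20.0, STAR 2.6c and featureCounts 1.5.1 on susScr11. Of all values 72.2% were whole; rounding changed a library's total by at most 0.0013%. Symbols were matched for 14857 of 25880 identifiers, and coordinates are the span of the listed exons. All 23 libraries were fitted in R 4.3.3 with edgeR 4.0.16 (filterByExpr with minimum count 10 and minimum total 15, TMM, robust quasi-likelihood, 4 group terms and batch), which tested 15049 genes two-sided at an adjusted p of 0.05. CPM used TMM-scaled totals, and scores a prior count of 2. The script was tested on simulated counts. No library pair was identical (0 pairs).

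The members, lists and comparisons were chosen with earlier results of these data known. Named genes were the 10 with the smallest p per direction after psilocybin (as fewer than 10 passed), the 5 with the smallest p for the difference, 12 genes of interest and, from each list, 4 members by smallest p. GBP1, IFIT1, BST2, IFI6, ISG15, CD68, LUM, ASPA, LXN and untested markers were named after their values were seen. Alternatives were RLE scaling, no filter, a filter of 1 CPM in 5 libraries, DESeq2 1.42.0, limma-voom (limma 3.58.1), edgeR without robust estimation, a model lacking batch, a fit of only the 2 groups compared, either batch by itself and leaving out each animal. Leaving out 3 libraries standing apart was added after seeing the data.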

Additional observations from a re-analysis of the deposited data

Results flagged for a closer look

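In groups of 4 to 10 animals, the extreme animal's gap to the nearest other was divided by the group's range, and 11 of 144 groups tested (7.64%) were beyond the 95% critical value, where chance gives about 1 in 20. Among the animals 1 day after psilocybin, animal 4 stood apart with the most assigned counts (18654626) and the lowest score of complement genes (-0.59), and animal 1 with the highest score of heat shock and chaperone genes (0.11). At 1 week animal 1 was apart in 4 measures: the share of mitochondrially encoded messages (12.9%), their score (0.36), and the scores of Gq and receptor regulation genes (-0.18) and of postsynaptic genes (-0.21). Animal 4 had the highest score of myelin markers at 1 week (0.089) and animal 6 the lowest of endothelial and mural markers (-0.45). For single genes, 1 week animal 3 was high in NFATC1 (2.58 on the log2 CPM scale) and animal 5 low in FRMD1 (1.49). Without these animals the log2 fold changes were 0.40 for NFATC1 and -0.85 for FRMD1.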

How the results depend on the processing

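No paired analysis was possible because no animal number occurs in more than 1 group (0 shared), and no replicate block could be fitted. The 5 or 6 animals a group limit the precision, and CENPF, at 0.645 to 3.06 CPM in the psilocybin libraries, was counted in few reads. The count of 0 genes between the times after psilocybin was 1 with DESeq2, and 0 to 1 on leaving out each animal (1 without 1 week animal 6, the gene being CENPF), and after saline it was 1 with DESeq2 (LXN). Counts at an unadjusted p under 0.05 were 318 in batch 2 alone and 952 without the 3 libraries standing apart, against 479. List medians that moved by more than the spread between animals were those of antigen presentation (0.095), neurotrophin and mTOR (-0.043) and oligodendrocyte precursor genes (-0.17) in batch 2 alone, and of myelin (-0.32) and serotonin system genes (0.15) in batch 1 alone.

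Of 3761 values of 164 named genes under the alternatives, 3700 kept their sign and side of the threshold, and 59 changed sign (26 of them on leaving out an animal) in 28 genes. In batch 1 alone these log2 fold changes were ACTA2 0.088, COX1 -0.036, FKBP5 0.040, JUN 0.019, LAPTM5 -0.034, MYH11 0.087, ND4L -0.071, ND5 -0.041, ND6 -0.015, NFKBIA 0.11, NR3C1 -0.053, NR4A1 -0.35, RSPH1 0.078 and TTR -0.60. In batch 2 alone they were ARC 0.20, CALB1 0.0061, COL3A1 -0.062, FOS 0.15, GRIN2C 0.052, HBB 0.22, HTR2A -0.10, MYT1 -0.077, NTRK2 -0.041, PENK -0.12 and TIE1 -0.027. With limma-voom DUSP1 had 0.012 and HBB 0.13, and without the 3 libraries standing apart FKBP5 had 0.042 and NR4A1 -0.073. NR4A1, at 0.0072 in the fit reported, also had -0.0050 in the compared groups alone, -0.013 with DESeq2, -0.00069 without a filter and -0.012 with RLE scaling. On leaving out each animal the ranges were -0.015 to 0.17 for BDNF, -0.0065 to 0.20 for COX1, -0.089 to 0.14 for DUSP1, -0.10 to 0.041 for FKBP5, -0.25 to 0.066 for FOS, -1.52 to 0.11 for GRIN2C, -0.52 to 0.30 for HBB, -0.26 to 0.11 for KCNJ13, -0.024 to 0.17 for ND4L, -0.014 to 0.18 for ND5, -0.022 to 0.17 for ND6, -0.098 to 0.20 for NR4A1, -0.024 to 0.080 for NTRK2, -0.23 to 0.026 for RSPH1 and -0.32 to 1.39 for TTR. The cause of these changes was not tested.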
